A study of Mus musculus with 48 samples.

Results

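The H19 and Igf2 imprinted domain was taken as all deposited peaks in a fixed window of 150 kb on chromosome 7 of the mouse build mm10, which holds H19, the interval upstream of it and Igf2. It held 37 peaks of 1444924 in 22 peak lists. These were 4 FLAG peaks in 3 of 10 FLAG lists, 11 SMC3 peaks in 7 of 10 SMC3 lists and 22 CTCF antibody peaks in both CTCF antibody lists. The cells were E14Tg2a mouse embryonic stem cells of strain 129/Ola whose endogenous CTCF carries an auxin-inducible degron. Each line also carried a doxycycline-inducible Ctcf transgene, either 1 of 9 mutants or WT. The mutants are named by the residue of CTCF that is changed: R339Q, R342C, S354F and K365T, then R377C and R377H at the same residue, then Q418R, R448Q and H455R. All mutant cells, and the WT cells that served as their control, had received 500 µM indole-3-acetic acid (IAA), the auxin that triggers degradation, together with 1 µg/ml doxycycline for 2 days. The WT line was also profiled without either agent, where endogenous CTCF is present. Peaks came from ChIPmentation, a chromatin immunoprecipitation in which a transposase adds the sequencing adapters on the beads. FLAG marked the transgene product, SMC3 the cohesin ring, and the CTCF antibody, used in treated and untreated WT cells, CTCF itself. Each list pools 2 replicates, so no spread between replicates and no test could be had, and a difference between genotypes is a difference between lists. Whether a genotype's line was 1 clone is not given in the sources used here.

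H19 and Igf2 are a classic pair of reciprocally imprinted genes. H19 is a long non-coding RNA expressed from the maternal chromosome, and Igf2 encodes a fetal growth factor expressed from the paternal one. In the textbook account a control region between them, close to H19, is methylated on the paternal chromosome, and CTCF binds its unmethylated maternal copy and keeps Igf2 from enhancers beyond H19. CTCF halts cohesin as it extrudes chromatin loops, so CTCF sites and SMC3 peaks often lie together. The peak lists do not separate the parental alleles, and the gene table used here has no entry for the control region.

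By the RefSeq annotation of GRCm38.p6, which mm10 stands for, the window ran through Nctc1 (a lncRNA), H19 with the microRNA gene Mir675 inside it, Gm33148 (a lncRNA), Igf2 with Mir483 inside it, the lncRNA Igf2os that overlaps Igf2, and Ins2, an insulin gene. H19 spans 142575530 to 142578146 and Igf2 spans 142650768 to 142666816. Both are read from the minus strand, H19 by the strand of Mir675, so the interval upstream of H19 is the side that faces Igf2. No genome sequence was used, so peaks are described by position. RefSeq promoter sequence was held for the 4 listed starts of Igf2 and not for H19. The 250 bases upstream of 1 of the Igf2 starts, at 142658804, are shown because they hold the only CTCF antibody peak that touched any of the 4. The sequence is chr7:142658805-142659054 on the minus strand, 5′ to 3′, and the capitals mark the 98 bases under that peak, which was listed in untreated WT cells only.

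Igf2 promoter, start 142658804: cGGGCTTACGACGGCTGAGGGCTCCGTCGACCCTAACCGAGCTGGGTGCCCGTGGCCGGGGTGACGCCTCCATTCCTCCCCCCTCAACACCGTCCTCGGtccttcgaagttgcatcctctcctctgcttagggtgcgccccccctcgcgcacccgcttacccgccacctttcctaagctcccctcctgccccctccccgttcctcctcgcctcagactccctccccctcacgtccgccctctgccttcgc

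The motif GGNGGCAG, a core of the CTCF consensus in the H19 control region, and the motif AGGNGGC, a core of the general CTCF consensus, were searched for on both strands in the 250 bases before and 50 after each start. The first was in 12.6% and the second in 29.4% of 32851 RefSeq promoters of that length. Of the 4 Igf2 promoters, 1 had the first motif and 2 the second, and those at 142661271 and 142666816 had neither. In the promoter above both motifs occurred on the strand opposite to the gene's, with GGNGGCAG at positions -65 to -58 from the start. AGGNGGC matched at -63 to -57, which overlaps the first match, and at -88 to -82. No match lay in the 98 bases under the peak. The start at 142657496 had 3 matches to AGGNGGC, which are the capitals in the sequence below (chr7:142657497-142657746, minus strand). They stood at -103 to -97 and -88 to -82 on the gene's strand and at -248 to -242 on the other strand. The nearest CTCF antibody peak to that start was 1765 bp away in treated WT cells and 1460 bp away in untreated WT cells.

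Igf2 promoter, start 142657496: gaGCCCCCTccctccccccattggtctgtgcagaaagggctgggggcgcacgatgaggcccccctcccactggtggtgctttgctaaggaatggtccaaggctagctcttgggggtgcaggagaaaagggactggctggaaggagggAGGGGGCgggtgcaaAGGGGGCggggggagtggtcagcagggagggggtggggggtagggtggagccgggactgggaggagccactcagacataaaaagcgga

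No peak of any list, for any antibody or genotype, lay over H19, Mir675, Mir483 or Ins2. The interval without a CTCF antibody peak around H19 was 57.2 kb long in treated WT cells (142552760 to 142609968) and 53.6 kb in untreated WT cells (142556016 to 142609663), and it takes in H19 and 31.5 kb upstream of it in the untreated list. Gaps at least this long were 8.27% of the 116952 gaps between neighbouring peaks in the treated list, where the median gap was 3.39 kb, and 5.86% of 175794 in the untreated list, where the median was 1.1 kb. These are shares of the number of gaps, and a long gap covers more of a chromosome than a short one. They do not give how often a gene or position falls in such a gap. Of 949 chromosome 7 windows of 150 kb, 22.2% held no treated CTCF antibody peak and 17.7% no untreated one. The peak numbers in the names ran on without a break across the window in all 22 lists, while between 1.3% and 5.26% of numbers were missing over whole lists. A missing peak does not show that CTCF was absent, since depth per library is unknown.

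The only peak within 10 kb of H19 was an SMC3 peak in R339Q cells, at 142581714 to 142581821, 3.57 kb upstream of H19. Its value, a score of the authors' peak caller that can be compared only within a list, was 3.57, above 71.7% of the 94978 peaks of that list. From here on, a percentile is the share of a list's peaks with a lower value. The peak was 25.7 kb from the nearest CTCF site of the window, and no FLAG list had a peak there. SMC3 was not listed there in the other 8 mutants or in WT cells. The WT SMC3 list held 71962 peaks, of which 50.5% overlapped an R339Q SMC3 peak. The share of R339Q SMC3 peaks that no other list had was not computed, so whether such a peak is rare cannot be told. The same holds for the other mutant SMC3 peaks described below that WT cells lacked.

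**Figure D1:**
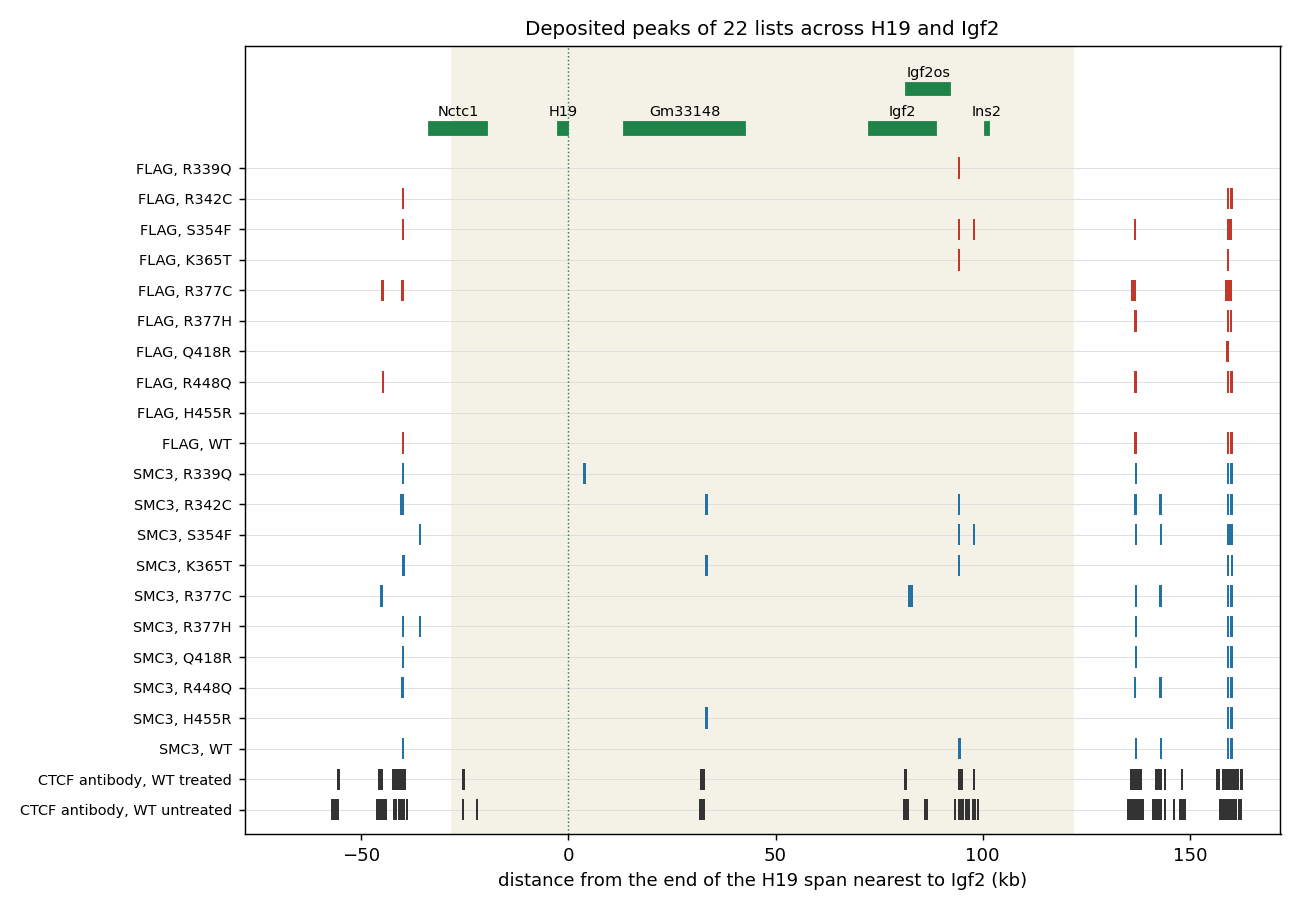
Peaks of all 22 lists (rows, by antibody and genotype) by their distance in kb from the end of the H19 span that faces Igf2. The shaded band is the 150 kb window, the strips beside it are flanks of 50 kb, and green bars are genes. Narrow peaks are drawn wider than they are, to be visible. FLAG peaks in the window lie between Igf2 and Ins2 and belong to R339Q, S354F and K365T. No CTCF antibody peak lies over H19.

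Merging FLAG and CTCF antibody peaks that overlapped gave 16 CTCF sites, all of which had a peak in untreated WT cells. Of these, 6 also had a peak in treated WT cells, 2 had FLAG peaks and 3 had SMC3 peaks. Over all chromosomes, merging in the same way, 29.7% of 199190 sites had a peak in any FLAG list and 37.4% in any SMC3 list. The treated list had 6 peaks in the window and the untreated list 16. Of all chromosome 7 windows of this width (949, median 5 peaks treated and 6 untreated), 58.4% held as few as or fewer than the H19 and Igf2 window in the treated list and 72.8% in the untreated list. All 6 treated peaks overlapped an untreated peak, beside 91.7% of treated peaks over the genome. Of the 16 untreated peaks 6 overlapped a treated peak, beside 56.9% over the genome. The 10 sites listed in untreated cells alone stood at percentiles 1.34 to 42.6 of the untreated list.

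The strongest site lay between Igf2 and Ins2, at 142672062 to 142673516, 5.25 kb upstream of the farthest Igf2 start and 5.14 kb from the Ins2 span. It is called the Igf2-Ins2 site here and was 93.9 kb from H19. The CTCF antibody value was 21.1 in treated WT cells (percentile 77.2) and 23.6 in untreated WT cells (percentile 84.7). These percentiles were the highest of the window in both lists.

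FLAG was listed at the Igf2-Ins2 site in 3 mutants and not in WT cells or the other 6 mutants. The K365T peak (142672111 to 142672503) had a value of 7.76 and ranked 1465 of 13151 peaks, at percentile 88.7. The S354F peak (142672113 to 142672506) had a value of 5.28 and ranked 5731 of 24152, at percentile 76.0. The R339Q peak (142672113 to 142672299) had a value of 3.63 and ranked 6585 of 18808, at percentile 64.4. The 3 peaks thus stood above the median of their lists and shared 187 bases, 142672113 to 142672299, all within the first 445 bases of the 1455 bp site. By rank, only the K365T peak was among the strongest 3855 of its list, the length of the shortest FLAG list (H455R).

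SMC3 was listed at the same site in K365T, S354F and R342C cells and in WT cells. The K365T peak (142672058 to 142672569) had a value of 8.67 at percentile 95.1, the highest of any peak in the window. The S354F peak (142672160 to 142672395) had a value of 4.40 at percentile 89.0, and the R342C peak (142672096 to 142672494) a value of 4.80 at percentile 87.2. The WT peak (142672248 to 142672394) had a value of 2.20 and ranked 70257 of 71962, at percentile 2.14. The 3 mutant SMC3 peaks were therefore high in their lists and the WT peak was near the bottom of its own. The 3 FLAG and 4 SMC3 peaks shared 52 bases, 142672248 to 142672299.

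FLAG and SMC3 did not coincide in every mutant at this site. R339Q cells had FLAG without SMC3, R342C cells had SMC3 without FLAG, and K365T and S354F cells had both. WT cells also had SMC3 without FLAG. Over the genome, 58.7% of R339Q FLAG peaks, 59.1% of S354F FLAG peaks and 78.5% of K365T FLAG peaks overlapped an SMC3 peak of the same mutant. In the other direction, 12363 of 71962 WT SMC3 peaks overlapped a WT FLAG peak, so most had none. That share was not computed for R342C, whose lists held 112747 SMC3 and 16687 FLAG peaks. R377C, R377H, Q418R, R448Q and H455R cells had neither.

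**Figure D2:**
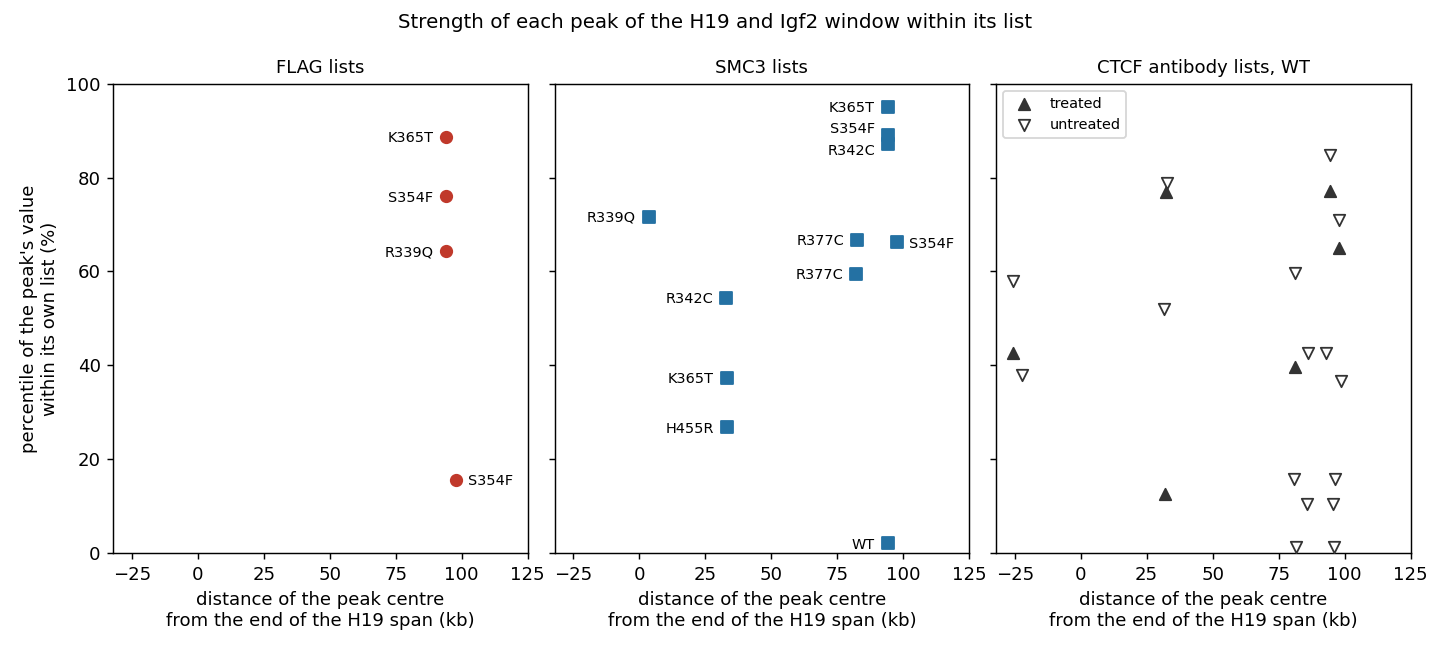
Percentile of each of the 37 peaks within its own list (vertical axis, %) by distance of the peak centre from the end of H19 (horizontal axis, kb), for FLAG, SMC3 and CTCF antibody lists. The labels give the genotype. At the Igf2-Ins2 site, near 94.0 kb, SMC3 stands at percentiles 87.2 to 95.1 in 3 mutants and at 2.14 in WT.

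All 4 mutant FLAG peaks of the window lacked a WT FLAG peak. Over the genome this held for 57.4% of R339Q, 45.8% of S354F and 39.0% of K365T FLAG peaks, so a mutant FLAG peak without one in WT was common in these lists. In the other direction, 53.1% of WT FLAG peaks overlapped one in R339Q, 86.2% in S354F and 52.1% in K365T. FLAG in all 3 of these mutants was found at 5685 of the 175815 untreated CTCF antibody peaks, and 372 of these 5685 (6.54%), the Igf2-Ins2 site among them, had no WT FLAG peak. This combination of genotypes was read off the Igf2-Ins2 site, so its count is a description.

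FLAG lists differed in length from 3855 peaks (H455R) to 30462 (R377C), with 15392 in WT. Among the 17582 untreated CTCF antibody peaks in the same decile of the list by value as the Igf2-Ins2 site, FLAG was listed at 14.4% in R339Q, 29.0% in S354F and 10.4% in K365T cells. At peaks of that strength the R377C list had FLAG at 31.1%, the Q418R list at 18.4% and the R448Q list at 17.1%, and none of these 3 had it at the Igf2-Ins2 site. The share was 12.7% in R377H, 11.5% in R342C, 2.25% in H455R and 10.9% in WT cells, which also lacked it there.

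**Figure D3:**
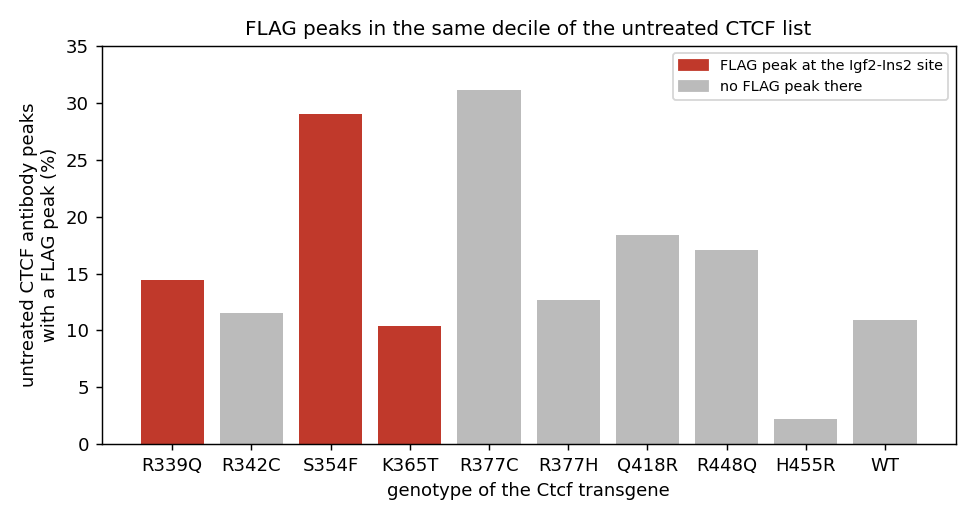
Share (%) of the 17582 untreated CTCF antibody peaks in the same decile of the list by value as the Igf2-Ins2 site that overlap a FLAG peak, by genotype. Red bars are genotypes with FLAG at the Igf2-Ins2 site, grey bars those without. R377C, with the highest share (31.1%), has none there, and K365T, at 10.4%, has one.

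The neighbouring site at 142675528 to 142676543, 8.71 kb upstream of the farthest Igf2 start, had FLAG and SMC3 in S354F cells alone. The S354F FLAG peak (142675789 to 142675908) had a value of 2.56 at percentile 15.6, and the S354F SMC3 peak (142675709 to 142675876) a value of 3.33 at percentile 66.2. The CTCF antibody value there was 9.29 in treated WT cells (percentile 65.0) and 8.16 in untreated WT cells (percentile 70.9). The other 5 sites between Igf2 and Ins2 were listed only in untreated WT cells, at percentiles 1.34 to 42.6, with no FLAG and no SMC3 peak.

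Within Igf2, 5 CTCF sites were listed and none had FLAG or SMC3. The strongest, at 142659200 to 142659561, was 396 bp upstream of the start at 142658804, with a value of 4.34 in treated WT cells (percentile 39.7) and 5.38 in untreated WT cells (percentile 59.6). The peak whose bases are capitals in the first sequence above was 152 bp from that start, with a value of 2.99 (percentile 15.9). The other 3 were in untreated WT cells alone, at percentiles 1.34, 10.4 and 42.6. SMC3 lay within Igf2 in R377C cells only, as a pair of peaks at 142660150 to 142660291 (value 3.29, percentile 59.5) and 142660633 to 142660860 (value 3.44, percentile 66.8). They were 199 and 682 bp from the nearest CTCF site and also lay in Igf2os, and R377C cells had no FLAG peak in the window.

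Between H19 and Igf2, CTCF sites were listed only inside Gm33148. The stronger, at 142610249 to 142611208 and 32.1 kb upstream of H19, had a CTCF antibody value of 20.7 in treated WT cells (percentile 76.9) and 14.0 in untreated WT cells (percentile 78.9). In the treated list this was close to the Igf2-Ins2 site. No FLAG list had a peak there. SMC3 touched its edge in R342C cells (142611157 to 142611320, value 3.20, percentile 54.4) and H455R cells (142611192 to 142611320, value 2.76, percentile 26.8). In K365T cells an SMC3 peak (142611236 to 142611345, value 2.98, percentile 37.3) was 28 bp beyond the site. These 3 peaks overlapped one another and stood 95, 130 and 174 bp from the treated CTCF antibody peak, on its Igf2 side, while WT cells had none. The weaker site beside it, at 142609664 to 142610133, had a value of 3.10 in treated WT cells (percentile 12.6) and 4.59 in untreated WT cells (percentile 52.0).

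Beyond H19 on the side away from Igf2, Nctc1 held both other sites. The site at 142552365 to 142552863 had a value of 4.54 in treated WT cells (percentile 42.6) and 5.18 in untreated WT cells (percentile 58.0). The site at 142555850 to 142556015 was listed in untreated WT cells only (value 3.79, percentile 38.0). Neither had a FLAG or an SMC3 peak in any genotype.

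By genotype, the window held 2 FLAG peaks in S354F, 1 in R339Q, 1 in K365T and 0 in the other 6 mutants and in WT cells. It held 2 SMC3 peaks each in R342C, S354F, K365T and R377C, 1 in R339Q, 1 in H455R, 0 in R377H, Q418R and R448Q, and 1 in WT cells. A window without a peak was common: of the 949 chromosome 7 windows, 37.5% (Q418R) to 85.1% (H455R) had no FLAG peak over the 9 mutants, and 51.4% had none in WT cells. For SMC3 the share without a peak was 32.3% (R342C) to 47.1% (Q418R) over the mutants and 37.1% in WT cells. R448Q, with the longest SMC3 list at 153647 peaks, had no SMC3 peak in the window, and K365T had 2 with 88092 peaks. The WT list held 71962.

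The window's WT SMC3 peak overlapped an SMC3 peak in R342C, S354F and K365T cells, 3 of 9 mutants. Over the genome the share of WT SMC3 peaks that overlapped one in the mutant was 73.3% in R342C, 53.7% in S354F and 57.8% in K365T. Among the mutants without the peak the share was 50.5% in R339Q, 60.7% in R377C, 69.0% in R377H, 29.3% in Q418R, 77.8% in R448Q and 60.2% in H455R. With only 1 WT SMC3 peak and no WT FLAG peak in the window, no share of WT peaks kept can be given for it. By the library codes in the peak names, the FLAG and SMC3 lists shared both libraries' codes in K365T, Q418R, H455R and WT, 1 in S354F, R377H and R448Q, and none in R339Q, R342C and R377C. The mutants with only FLAG or only SMC3 at the Igf2-Ins2 site, R339Q and R342C, are among those whose lists shared no code. WT cells also had only SMC3 there, and their lists shared both codes. The names of SMC3 lists also carry a tag whose meaning is not given. It was b2 in R339Q, the mutant with the SMC3 peak near H19, b3 in Q418R, b1 and b2 in S354F and R377C, and b1 in R342C, K365T, R377H, R448Q, H455R and WT. The part of these codes and tags in the results was not tested.

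Outside the window, 50 kb to each side, WT cells had 4 FLAG peaks, which give a contrast within the same stretch of chromosome. They lay in Mrpl23, a mitochondrial ribosomal protein gene, and in the predicted gene Gm39116 (3 peaks). All 4 overlapped a WT SMC3 peak, as did 81.2% of WT FLAG peaks over the genome. They also overlapped an untreated CTCF antibody peak at percentiles 90.9 to 97.0, above the 84.7 of the Igf2-Ins2 site. At the sites starting at 142737026 and 142737847, both in Gm39116, that peak had the same value (41.5). These sites may lie under the same CTCF antibody peak, so the counts over the 4 sites may take in that locus more than once. S354F and R377C cells had FLAG at all 4, R342C, R377H and R448Q cells at 3, K365T and Q418R cells at 1, and R339Q and H455R cells at none. Beside the shares given above for R339Q, S354F and K365T, the share of WT FLAG peaks over the genome that overlapped one in the mutant was 89.6% in R377C, 72.2% in R342C, 71.8% in R377H, 75.2% in R448Q, 59.2% in Q418R and 10.5% in H455R. R339Q had FLAG at the Igf2-Ins2 site and at none of the flanking WT sites, and R377C had the reverse. SMC3 overlapped the 4 flanking sites in 6, 7, 9 and 9 mutants, against 3 mutants at the Igf2-Ins2 site. The flanking sites were picked for a WT FLAG peak, which the Igf2-Ins2 site lacks, so the sites compared are not alike. The genome share of WT FLAG sites with SMC3 in each mutant was not computed. The flanking stretch was chosen after the window's counts were seen.

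**Figure D4:**
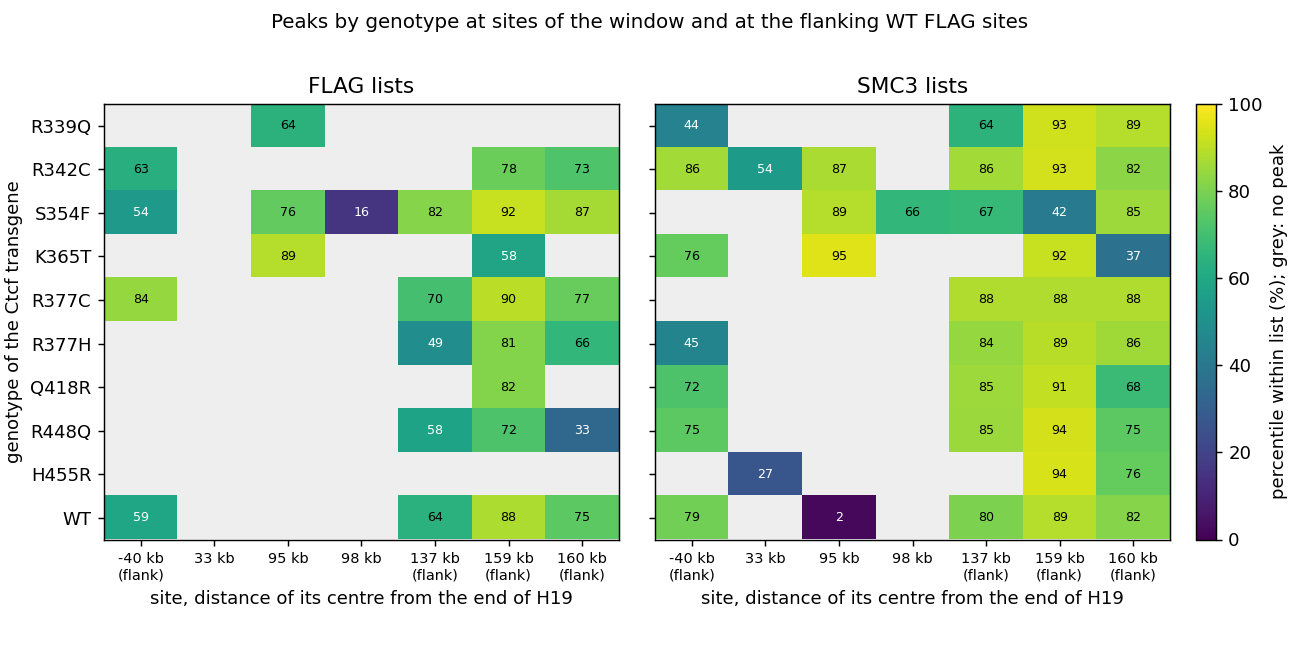
Percentile within its list (colour and number, %) of the FLAG peak (left) and SMC3 peak (right) of each genotype at the sites of the window that had either and at the 4 flanking WT FLAG sites, named by distance in kb from the end of H19. Grey means no peak. Mutants run down the page, with WT last. R339Q and K365T differ from R377C and R448Q in which of these sites carry FLAG.

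Of 17 genes listed for the distal chromosome 7 imprinted region, 8 had a WT FLAG peak within 10 kb and 12 a FLAG peak in at least 1 mutant. Over 34614 protein-coding and lncRNA genes these shares were 32.4% and 66.3%, and 21.8% had no CTCF antibody peak within 10 kb in treated or untreated WT cells. H19 and Kcnq1ot1, the non-coding RNA of the neighbouring imprinted cluster, were the 2 genes without a CTCF antibody peak within 10 kb in treated or untreated WT cells. Igf2 had 3 treated and 12 untreated peaks within 10 kb, and Ins2 had 2 treated and 7 untreated, beside a median of 7 untreated peaks over the 17 genes and a highest value of 26 at Osbpl5. FLAG within 10 kb of Igf2 and Ins2 was the same set of peaks, in R339Q, S354F and K365T. Cdkn1c and Phlda2, maternally expressed growth-restraining genes of that cluster, had FLAG in 8 mutants each and in WT cells.

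Windows of the same width around other imprinted non-coding RNAs or genes differed. Around Kcnq1ot1 there were no FLAG and no CTCF antibody peaks, and 0 to 6 SMC3 peaks over the mutants beside 0 in WT cells. Around Meg3, a maternally expressed lncRNA on chromosome 12, all 9 mutants had FLAG (1 to 5 peaks) and WT cells had 1, with 14 treated and 19 untreated CTCF antibody peaks. Around Peg3, a paternally expressed zinc-finger gene on chromosome 7, 7 mutants had FLAG and WT cells had 3 FLAG peaks, with 6 treated and 10 untreated CTCF antibody peaks. The H19 and Igf2 window thus held as many treated CTCF antibody peaks as the Peg3 window, without FLAG in WT cells. Such a lack was common. The WT FLAG list held 15392 peaks against 116973 in the treated CTCF antibody list, and 51.4% of chromosome 7 windows had no WT FLAG peak.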

How the data were processed

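The series has 48 samples in 24 groups of 2 replicates, grouped from the labels. The 22 peak lists analysed here pool replicates 1 and 2 by their titles, while the peak names in 9 of 10 FLAG lists carry other replicate numbers, so what a list pools rests on its title. The 2 other groups, FLAG in untreated WT cells and IgG, were not analysed here. The submitters' processing notes name mm10, MACS2, Bowtie2, deepTools and Trim Galore, without versions or settings. The deposited score of each peak comes from the authors' peak calling, and as its measure is not named it was ranked only within a list. Repeated intervals in FLAG lists, 1 for each summit, were merged with the highest value kept. Peaks were joined by an overlap of at least 1 bp (Python 3.11.15, numpy 2.4.6, pandas 2.3.3), checked on simulated lists and against bedtools 2.31.1. Figures used matplotlib 3.10.9. Gene spans and promoters came from RefSeq (GRCm38.p6). Depth per library is unknown, so no interval or floor that needs it is given. Named were every site of the window, every gene whose span touches it, windows centred on Kcnq1ot1, Meg3 and Peg3, and 17 distal chromosome 7 genes. The members and lists were chosen with earlier results of these data known. Alternatives were a reciprocal overlap of 50%, edges within 500 bp, the upper 50% of each list, lists shortened to the strongest 3855 FLAG, 42030 SMC3 or 116973 CTCF antibody peaks, chromosome 7 ranks, merging within 500 bp, and flanks of 50 kb.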

Additional observations from a re-analysis of the deposited data

How the results depend on the processing

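The overlap of the window's 1 WT SMC3 peak with mutant SMC3 peaks (R342C, S354F and K365T, 3 in all) depended on the setting: a reciprocal overlap of 50% left 1, in S354F, with 0 in R342C and 0 in K365T, and with the upper 50% of each list or equal numbers of top peaks it was 0 in each, as the WT peak itself drops out. Of untreated CTCF antibody peaks, 6 of 16 overlapped a treated peak, against 10 when edges within 500 bp counted and 3 of 6 in the upper 50%, where the reverse count was 3 of 3. Merging within 500 bp gave 8 CTCF sites in place of 16. Of the 3 FLAG peaks at the Igf2-Ins2 site, all were in the upper 50% of their lists. Only the K365T peak (rank 1465) was within the strongest 3855, against ranks of 5731 in S354F and 6585 in R339Q. With FLAG lists of equal length, K365T alone would therefore have FLAG there. Widened by 50 kb on each side, a setting that for the overlaps was chosen after seeing the data, the window had 19 overlaps of its 4 WT FLAG peaks with mutant FLAG peaks, 38 of its 6 WT SMC3 peaks with mutant SMC3 peaks, 21 of 43 untreated peaks with a treated one, 18 of 21 treated with an untreated one, and 4 of 4 WT FLAG peaks with SMC3. It then held FLAG peaks numbering 1 in R339Q, 3 in R342C, 6 in S354F, 2 in K365T, 6 in R377C, 3 in R377H, 1 in Q418R, 4 in R448Q, 0 in H455R and 4 in WT. SMC3 peaks then numbered 5 in R339Q, 8 in R342C, 7 in S354F, 5 in K365T, 7 in R377C, 5 in R377H, 4 in Q418R, 5 in R448Q, 3 in H455R and 6 in WT, and CTCF antibody peaks 21 in treated and 43 in untreated WT cells. The causes of these shifts were not tested further. Ranked on chromosome 7 alone, percentiles shifted by -6.8 to 1.0 points. Of the 37 percentiles, 33 left the 95% Wilson interval of a share of the list's peaks, which is narrow in lists this long. Leaving it can therefore mean a small shift, such as 76.0 to 75.3 for the S354F FLAG peak at the Igf2-Ins2 site. No paired analysis was possible because each list pools both replicates, and for the same reason no replicate could be left out. Depth per library is unknown, the lists differ in length, and the parental alleles are not separated, so a missing peak, above all in the short H455R FLAG list, does not show that CTCF or cohesin was absent.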
